A study of Aptenodytes patagonicus with 7 samples.

Results

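The proteins that bring fatty acids into muscle and carry them inside the cell were followed through 8 genes, FABP3, FABP4, RBP7, CD36, LPL, SLC27A1, SLC27A4 and ACSL1. The members were all probe sets of the chicken array whose single gene symbol was one of these 8, which gave 13 of the 36897 probe sets deposited and 8 of the 12920 genes with a symbol of their own. FABP3, FABP4 and LPL had 1 probe set each, and RBP7, CD36, SLC27A1, SLC27A4 and ACSL1 had 2. All of the 8 symbols except FABP4 were matched in the RefSeq gene table of the king penguin (assembly bAptPat1).

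Muscle was taken under isoflurane anaesthesia from the pectoralis, which drives the wing in flight and in swimming, of 7 wild juvenile king penguins. The sea-acclimated group (SA) held 3 birds, 2 females and 1 male, already living at sea and fully used to it, and the never-immersed group (NI) held 4 birds, 3 females and 1 male, due to leave land but not yet in the sea. The ages of the birds at capture are not given in the sources used here, so age and immersion cannot be told apart. Each bird was a separate animal measured on its own array, and the values are log2 intensities of 1 probe per probe set.

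The median log2 value lay between 8.58 and 8.59 on every array, and Pearson's r over all probe sets was between 0.94 and 0.98 for pairs of birds, which is a correlation across probe sets of different brightness. Of 17 skeletal muscle markers, 12 were measured, with a mean log2 level over their brightest probe sets of 12.71 to 12.88 in SA and 12.86 to 12.95 in NI, and none of them lay under the 25th percentile of brightness. A chicken probe reads the penguin transcript through whatever sequence the 2 birds share, so the level of 1 probe set cannot be set against that of another. A probe may also bind other penguin transcripts. The paper could not measure this cross-hybridization, proposes that its effect was slight, and asks for candidate genes to be checked by another method.

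Fatty acids reach a muscle fibre either bound to albumin or inside lipoprotein triglyceride, which lipoprotein lipase splits at the capillary wall. They cross the membrane with the help of the scavenger receptor CD36 and the transport proteins of the SLC27A family, are activated to acyl-CoA by synthetases such as ACSL1, and move through the cytosol on small fatty acid binding proteins. RBP7 belongs to the same protein family as the fatty acid binding proteins but binds retinol. Fatty acids are a main fuel of working muscle and of shivering in birds.

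One of the 13 probe sets was called between the groups. It was the brighter one of RBP7, which rose in SA, and no member fell (limma adjusted p under 0.10, Benjamini-Hochberg over all probe sets). Over the whole array 1.07% of the probe sets were called, 0.417% higher and 0.65% lower in SA. By the sample labels 154 probe sets were thus higher and 240 lower in SA. The text of the paper gives 240 genes as up-regulated and 154 as down-regulated after acclimation, the same counts with the directions exchanged. The directions used here, for the members too, are those of the labels, and which assignment holds was not tested. The SA birds did not overlap the NI birds in 7 of the 13 probe sets, 4 of them higher and 3 lower in SA, where 10.3% of all probe sets did not overlap, 5.16% higher and 5.09% lower. By gene, 1 of the 8 held a called probe set, beside 2.17% of all genes, and 1 of the 8 was called by its brightest probe set, beside 1.55%. At an unadjusted p under 0.05 there were 6 of the 13, 3 in each direction, beside 10.4% of all probe sets. The median log2 difference of the 13 was 0.06, beside 0.01 over the array, and the median size of the difference was 0.26, beside 0.12. The members were chosen with earlier results of these data known, so these shares and sizes do not test the 8 genes as a group. With 4 against 3 birds, 0.0286 is the smallest two-sided p that an exact permutation test over the 35 splits can give. Where the groups do not overlap, this test gives either 0.0286 or 0.0571, whatever the gap between them. Its p therefore does not rank such probe sets.

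**Figure D1:**
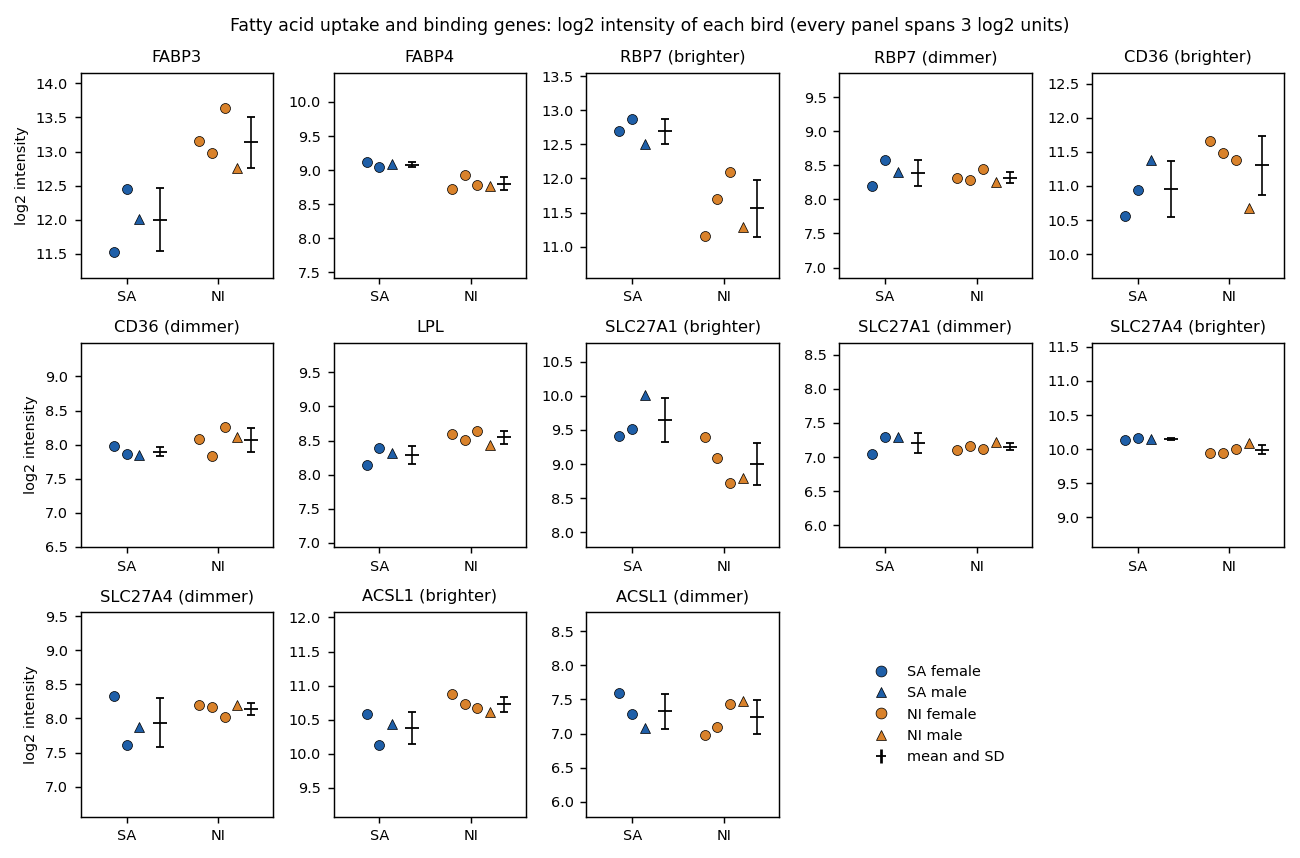
Log2 intensity of every bird for the 13 probe sets, with SA birds on the left and NI birds on the right of each panel, females as circles and males as triangles, and the mean with its SD beside them. FABP3 (12.00 in SA, 13.13 in NI) and the brighter RBP7 probe set (12.69 in SA, 11.56 in NI) show the widest separation, and every panel spans 3 log2 units.

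Among the intracellular binding proteins, FABP3 and RBP7 lay in opposite directions by the same amount. FABP3, the fatty acid binding protein of heart and skeletal muscle, was read by 1 probe set. Its log2 intensity was 11.53, 12.46 and 12.01 in SA birds 1 to 3, against 13.16, 12.98, 13.64 and 12.75 in NI birds 1 to 4. Every SA bird was below every NI bird, with a gap of 0.29 between the nearest birds, although the birds of each group were also widely spread. The means were 12.00 ± 0.46 in SA and 13.13 ± 0.38 in NI (SD, n = 3 and 4). The log2 difference was -1.13 (standard error 0.25, 95% confidence interval -1.70 to -0.57), which is 2.19-fold lower in SA. It missed the threshold (limma adjusted p = 0.108, rank 449 of 36897 by p), and the exact two-sided permutation p was 0.0286. The probe set was brighter than 98.6% of the array. FABP3 passed in none of the 7 fits that left out 1 bird (limma adjusted p from 0.101 to 0.262), and its log2 difference stayed between -1.36 and -0.90 in them. It passed with array weights (limma adjusted p = 0.0824).

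RBP7, a cellular retinol binding protein known in chicken chiefly from adipose tissue, was read by 2 probe sets. In the brighter one the log2 intensity was 12.69, 12.88 and 12.50 in SA birds 1 to 3, against 11.16, 11.70, 12.09 and 11.28 in NI birds 1 to 4. All SA birds stood above all NI birds, by at least 0.41, and they were closer together than the NI birds. The means were 12.69 ± 0.19 in SA and 11.56 ± 0.42 in NI (SD, n = 3 and 4). RBP7 rose by 1.13 on the log2 scale in SA (standard error 0.22, 95% confidence interval 0.64 to 1.62), or 2.19-fold (limma adjusted p = 0.0714, exact two-sided permutation p = 0.0571).

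The other RBP7 probe set was dimmer and did not follow. Its log2 intensity was 8.19, 8.58 and 8.40 in SA birds 1 to 3, against 8.31, 8.28, 8.44 and 8.26 in NI birds 1 to 4. The groups overlapped, with a log2 difference of 0.07 (95% confidence interval -0.21 to 0.35, limma adjusted p = 0.909). The change of the brighter probe set exceeded that of the dimmer one by 1.06 on the log2 scale. The exact two-sided permutation p was 0.0286, the smallest possible, and 0.143 after adjustment over the 5 genes with 2 probe sets. The RBP7 call was lost in most of the fits that left out 1 bird, each of which had fewer arrays. It was kept without NI bird 3 (limma adjusted p = 0.0261) and lost without SA bird 1, SA bird 2, SA bird 3, NI bird 1, NI bird 2 or NI bird 4 (limma adjusted p = 0.121, 0.208, 0.15, 0.154, 0.161 and 0.145), where its log2 difference stayed between 1.00 and 1.22.

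FABP4, the fatty acid binding protein of adipocytes and, in human and mouse, of capillary endothelium, had a narrow spread. Its log2 intensity was 9.11, 9.04 and 9.09 in SA birds 1 to 3, against 8.72, 8.93, 8.79 and 8.77 in NI birds 1 to 4. The SA birds were all higher, by at least 0.10, and lay close to each other. The log2 difference of 0.28 (standard error 0.11, 95% confidence interval 0.04 to 0.51) did not pass (limma adjusted p = 0.372, exact two-sided permutation p = 0.0571).

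**Figure D2:**
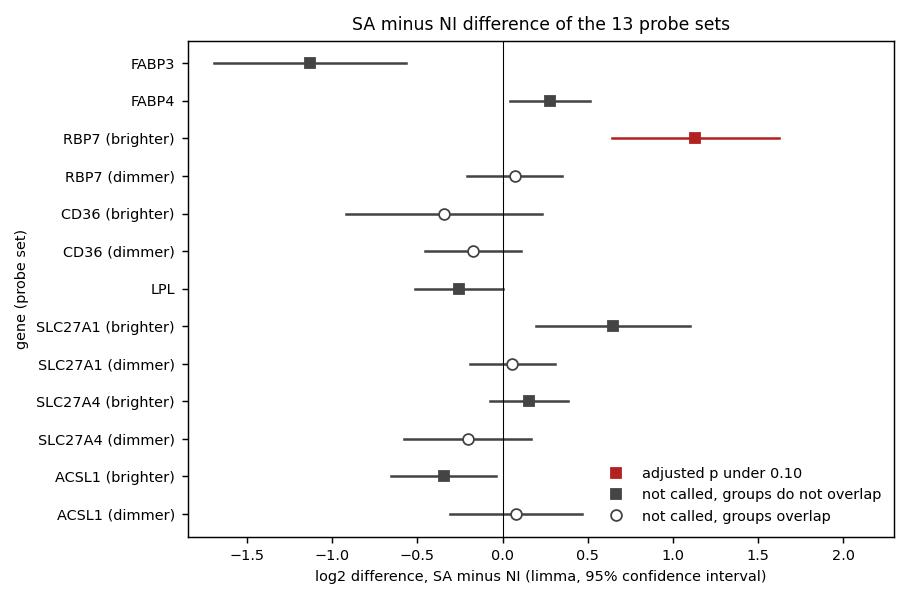
Log2 difference between SA and NI (SA minus NI) with its 95% confidence interval from limma for each probe set, red where the adjusted p was under 0.10 and as a filled square where the birds of the groups did not overlap. RBP7 at 1.13 and FABP3 at -1.13 are the outermost, and in each gene with 2 probe sets except CD36 only the brighter one separated the groups.

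Of the genes that act at the capillary wall and the membrane, none passed. LPL codes for lipoprotein lipase, which frees fatty acids from circulating triglyceride. Its log2 intensity was 8.14, 8.40 and 8.32 in SA birds 1 to 3, against 8.59, 8.50, 8.65 and 8.44 in NI birds 1 to 4. The SA birds were lower throughout, though only 0.04 separated the nearest birds. The log2 difference was -0.26 (standard error 0.11, limma adjusted p = 0.476, exact two-sided permutation p = 0.0286).

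CD36 binds long-chain fatty acids at the cell surface and moves to the membrane of working muscle. The log2 intensity of its brighter probe set was 10.56, 10.93 and 11.38 in SA birds 1 to 3, against 11.67, 11.48, 11.38 and 10.68 in NI birds 1 to 4. The groups overlapped through SA bird 3, the highest SA bird, and NI bird 4, the lowest NI bird. These were the males, and with 1 male in each group sex and single bird cannot be told apart. The log2 difference was -0.34 (95% confidence interval -0.92 to 0.23, limma adjusted p = 0.736). It was -0.14 without SA bird 1, -0.55 without SA bird 3, -0.22 without NI bird 1 and -0.55 without NI bird 4, and -0.11 with array weights. The dimmer probe set ranged from 7.85 to 7.97 in SA and from 7.83 to 8.26 in NI, with a log2 difference of -0.17 (limma adjusted p = 0.726) that was -0.11 without NI bird 3.

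SLC27A1, a fatty acid transport protein of muscle and fat, had its separation in the brighter of its probe sets. The log2 intensity of the brighter one was 9.41, 9.52 and 10.02 in SA birds 1 to 3, against 9.40, 9.09, 8.72 and 8.79 in NI birds 1 to 4. The SA birds were higher, but SA bird 1 and NI bird 1 were only 0.01 apart. The log2 difference was 0.65 (standard error 0.20, 95% confidence interval 0.19 to 1.10), or 1.57-fold, and did not pass (limma adjusted p = 0.251, exact two-sided permutation p = 0.0571). It passed with array weights (limma adjusted p = 0.0892). The dimmer probe set was brighter than only 6.84% of the array and lay at 0.06 (limma adjusted p = 0.920), or from 0.015 to 0.14 with 1 bird left out.

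SLC27A4, the transport protein best known from the intestine in mouse, had the smallest difference of the probe sets without overlap. The log2 intensity of the brighter probe set was 10.13, 10.16 and 10.15 in SA birds 1 to 3, against 9.94, 9.94, 10.01 and 10.09 in NI birds 1 to 4. The SA birds lay close together, 0.04 above the highest NI bird, and the log2 difference was 0.15 (limma adjusted p = 0.687). The dimmer probe set ranged from 7.61 to 8.33 in SA and from 8.02 to 8.20 in NI, with a log2 difference of -0.20 (limma adjusted p = 0.765) that was -0.40 without SA bird 1 and -0.040 without SA bird 2.

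ACSL1, the acyl-CoA synthetase of liver, fat and muscle that commits long-chain fatty acids to use in the cell, was lower in every SA bird by its brighter probe set. The log2 intensity was 10.58, 10.12 and 10.43 in SA birds 1 to 3, against 10.88, 10.73, 10.67 and 10.62 in NI birds 1 to 4. The gap between the groups was 0.04, and the log2 difference was -0.35 (standard error 0.14, 95% confidence interval -0.65 to -0.04, limma adjusted p = 0.395, exact two-sided permutation p = 0.0286). Without SA bird 2 it was -0.22. The dimmer probe set, brighter than 8.90% of the array, ranged from 7.08 to 7.60 in SA and from 6.98 to 7.48 in NI and lay at 0.08 (limma adjusted p = 0.933). In none of the 5 genes with 2 probe sets did the difference between their changes pass after adjustment (exact two-sided permutation test, adjusted p from 0.143 to 0.571). The smallest p of this test, 0.0286, becomes 0.143 over 5 genes when a single gene reaches it. A single gene alone could therefore not pass, and the test cannot decide whether the probe sets of RBP7 changed unequally.

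**Figure D3:**
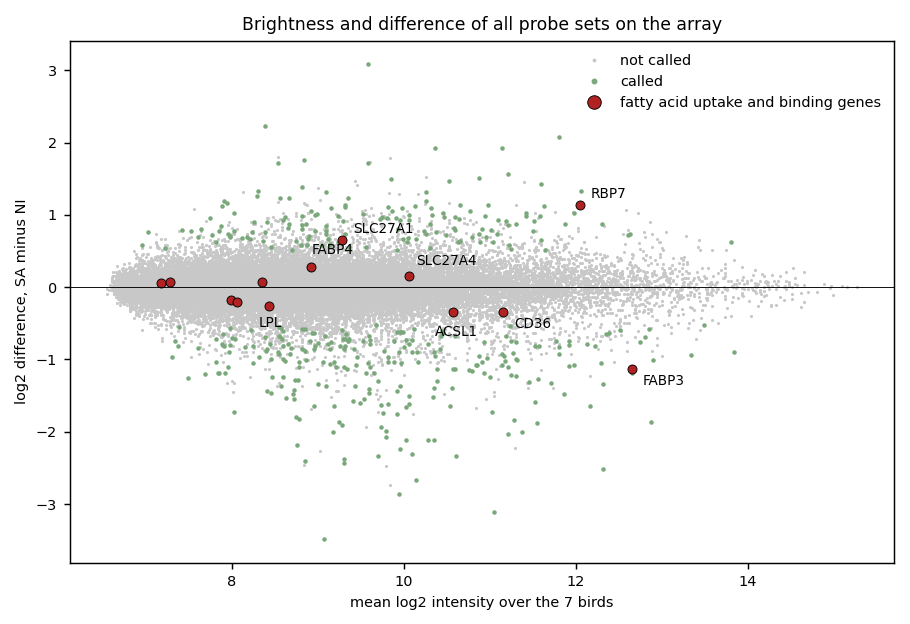
Mean log2 intensity over the 7 birds against the log2 difference (SA minus NI) for all 36897 probe sets in grey, the called ones in green and the 13 members in red, with the brighter probe set of each gene named. FABP3 and RBP7 stand at the bright end of the array at -1.13 and 1.13, and 6 of the 13 members lie below the 50th percentile of brightness.

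The birds also differed in sex. With the groups split by sex, 11 of the 13 probe sets had the same sign of SA minus NI in females as in males. The females were 2 SA and 3 NI birds, and the males 1 SA and 1 NI bird. The share of all probe sets with the same sign in both sexes was not computed, so whether this count is particular to the members is not known. The brighter RBP7 probe set lay at 1.13 in females and 1.22 in males, and FABP3 at -1.27 in females and -0.74 in males. The brighter CD36 probe set was the main exception. It was lower in both SA females than in all NI females, with a log2 difference of -0.76, and in males the difference was 0.70. The interaction of sex and group for CD36 was 1.46 (limma unadjusted p = 0.00261, adjusted p = 1.00), and no probe set of the array passed for it, with 1155 at an unadjusted p under 0.05 and 1 of the 13 members among them. The dimmer ACSL1 probe set was the other one of opposite sign, at 0.28 in females and -0.40 in males. For SLC27A1 the brighter probe set was higher in SA by 0.39 in females and 1.23 in males. With 1 male in each group, these values of the males carry no measure of error.

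**Figure D4:**
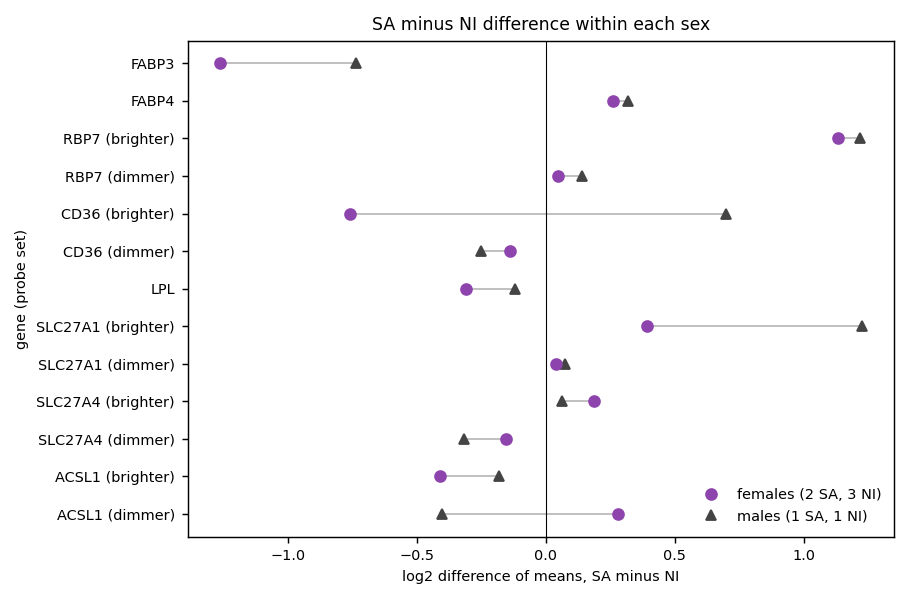
Log2 difference of the means (SA minus NI) in females as circles and in males as triangles for each probe set. The brighter CD36 probe set lies on both sides of 0, at -0.76 in females and 0.70 in males, while RBP7 and FABP3 keep their sign.

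Of the other genes of the pathway 1 was called. Of 70 listed genes of fatty acid entry, binding and activation outside the 8, 55 were measured by 96 probe sets, of which 1 was lower and none was higher (1.04% called, beside 1.07% of the array). The median log2 difference of their brightest probe sets was 0.04, beside 0.00 over all genes, with 28 of positive and 27 of negative sign. The one that fell was ACSS3, which activates short-chain acids in mitochondria, by 0.88 on the log2 scale (standard error 0.13, limma adjusted p = 0.0281). Its log2 intensity was 7.87, 7.95 and 7.87 in SA birds 1 to 3, against 8.64, 8.75, 8.67 and 9.05 in NI birds 1 to 4, so that the groups lay well apart. The call was lost without SA bird 3 (limma adjusted p = 0.110). A brighter probe set of ACSS3 lay at -0.48 (limma adjusted p = 0.292).

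By family, and by the brightest probe set of each gene, the 4 other fatty acid binding proteins measured ranged from -0.74 (FABP7) to 0.07 (FABP1). The 5 other retinoid binding proteins measured ranged from -0.14 (RBP4) to 0.42 (RBP5), and the transport proteins SLC27A2 and SLC27A6 lay at -0.13 and 0.04. The 6 other long-chain acyl-CoA synthetases ranged from -0.76 (ACSL4) to 0.64 (ACSBG2), and the other probe sets of ACSL4 ranged from -0.13 to 0.40. The ACSBG2 difference rested on SA bird 1 at 10.90, as SA birds 2 and 3 lay at 8.94 and 8.63 and the NI birds from 8.62 to 9.10. The 7 measured lipases and partners of lipoprotein lipase ranged from -0.31 (ANGPTL4, an inhibitor of the lipase) to 0.54 (SEL1L, which is needed for its maturation in mouse), and other probe sets of SEL1L lay at -0.36, with no overlap of the groups, and at 0.25. No probe set of these 5 families was called, and the smallest limma adjusted p among them was 0.265.

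PPARs and their coactivators switch on many of these genes in mammals. Of 22 such regulators and partners 18 were measured, and none of their 46 probe sets passed. The smallest p-values belonged to FOXO1, a transcription factor of fasting, at 1.29 (limma adjusted p = 0.188), PPARGC1A, the coactivator PGC-1alpha, at -1.02 (limma adjusted p = 0.255) and the nuclear receptor ESRRG at 0.33 (limma adjusted p = 0.337). The 18 genes had a median log2 difference of -0.02.

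RBP7 and FABP4 also mark fat cells, and CD36 and FABP4 mark capillaries, so markers of other cell types were read beside them. The marker lists were chosen with earlier results of these data known, so the shares called among them do not test a cell type. Of 13 further adipocyte markers 11 were measured, and of their 17 probe sets 2 were higher in SA, G0S2 and 1 of several of PLIN1, and none was lower (11.8% called, beside 1.07% of the array). G0S2, an inhibitor of triglyceride breakdown that muscle also expresses, lay at 11.51, 11.48 and 11.52 in SA birds 1 to 3, against 10.74, 10.64, 10.81 and 10.84 in NI birds 1 to 4, a log2 difference of 0.74 (limma adjusted p = 0.0254). PLIN1, the coat protein of fat droplets, rose by 0.58 (limma adjusted p = 0.0760) in one probe set, a call lost when sex entered the fit (limma adjusted p = 0.113) and in each of the 7 fits that left out 1 bird, and its brightest probe set lay at -0.12. In the other direction, GPD1, an enzyme of glycerol phosphate formation that muscle also expresses, lay at -0.76 (limma adjusted p = 0.149), and ADIPOQ, the adipocyte hormone adiponectin, at -0.30 (limma adjusted p = 0.498). The mean log2 level over the 11 adipocyte markers ranged from 9.66 to 9.75 in SA and from 9.69 to 9.78 in NI, so the groups overlapped.

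None of 17 endothelial markers measured passed, with 1 probe set of VWF at -0.41 and EGFL7 at 1.31 (limma adjusted p = 0.239 and 0.278), and their mean log2 level was 9.91 to 9.96 in SA and 9.78 to 9.94 in NI. None of the 17 leukocyte markers measured passed (TIMD4 at 0.46 and LCP1 at 0.25 had the smallest p), at levels of 9.17 to 9.23 in SA and 9.16 to 9.26 in NI, and none of 7 smooth muscle markers (RGS5 at 0.26, PDGFRB at -0.51), at 9.96 to 10.74 in SA and 10.01 to 10.51 in NI. Of the 12 measured skeletal muscle markers TNNC2 fell (log2 difference -0.94, limma adjusted p = 0.0341, but 0.112 without SA bird 2), and TTN lay at -0.46. Of 6 erythroid markers TFRC, the transferrin receptor, fell (log2 difference -1.64, limma adjusted p = 0.0733), a call lost without SA bird 2, SA bird 3, NI bird 1, NI bird 2 or NI bird 4 (limma adjusted p from 0.151 to 0.188), and EPB42 lay at -0.33. Of 32 probe sets of 12 fibroblast markers 5 were lower (15.6%, beside 0.65% of the array), all of COL1A1 or COL1A2. By their probe sets of smallest p, COL1A2 (-0.95) and COL1A1 (-2.43) fell (limma adjusted p = 0.0198 and 0.0628), COL1A1 not without SA bird 1, SA bird 2, NI bird 1, NI bird 2 or NI bird 3 (limma adjusted p from 0.110 to 0.185), and the mean level of the list, 8.66 to 9.28 in SA and 9.44 to 9.88 in NI, did not overlap. By brightest probe set, the median log2 difference of the 12 fibroblast genes was -0.18, with 3 of positive and 9 of negative sign. Only COL1A1 and COL1A2 were called among these, and the mean level of the list includes both. This list too was chosen with earlier results known, so its share called is no test of fibroblasts. The mean level of the erythroid list did not overlap either, at 10.32 to 10.65 in SA and 10.67 to 11.01 in NI. The median log2 difference of its 6 genes was -0.07, and its mean level includes TFRC at -1.64. The part of these lists in the values of FABP3, LPL and ACSL1 was not tested. In a biopsy of whole muscle, fewer cells of a type and less RNA per cell cannot be told apart.

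**Figure D5:**
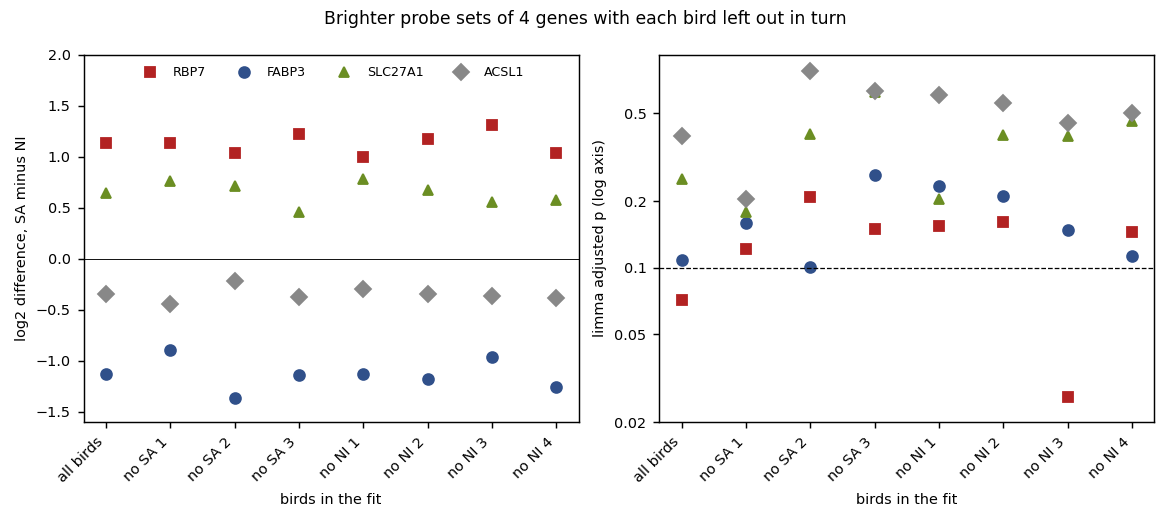
Log2 difference (SA minus NI, left) and limma adjusted p on a log axis (right) of the brighter probe sets of RBP7, FABP3, SLC27A1 and ACSL1 with all birds and with each bird left out, where the dashed line marks an adjusted p of 0.10. All 4 kept their sign, and of the fits with a bird left out only that of RBP7 without NI bird 3 (0.0261) lay below the line.

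The probe sets with other symbols that followed RBP7 most closely were found by the root mean square difference between profiles over the 7 birds, each centred on its own mean, among 26095 probe sets. They were those of GALR2 (0.13 log2 units), a receptor of the neuropeptide galanin, TECTB (0.14), a protein of the inner ear, and EFCAB14 (0.15). TECTB was higher in SA by 1.12 (limma adjusted p = 0.0408), and GALR2 and EFCAB14 lay at 1.03 and 0.92 (limma adjusted p = 0.139 and 0.123). Nearest to FABP3 were WNT11 (0.24), a signalling protein, COL4A5 (0.24), a chain of basement membrane collagen, and HHAT (0.27), which attaches palmitate to hedgehog proteins. HHAT was lower in SA by a log2 difference of -1.02 (limma adjusted p = 0.0760), and WNT11 and COL4A5 lay at -0.83 and -0.80 (limma adjusted p = 0.365 and 0.193). All of these probe sets were chosen for likeness to a profile in which the groups already lay apart. Their differences of the same sign therefore follow from the choice and are no separate result.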

How the data were processed

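Total RNA of 7 pectoralis biopsies was hybridized to Affymetrix chicken arrays, 1 array per bird. In the deposited log2 values, each probe set stands for 1 probe. The authors discarded probes below background on all arrays, let the probe that ranked brightest over the arrays represent its set, and quantile normalized. No background subtraction is described, so dim probe sets hold an unmeasured share of background, and precision is limited by the number of arrays. Limma is named in the submitters' processing notes, with no version. Groups and sexes came from the sample labels, and gene symbols from the platform annotation for chicken.

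SA minus NI was fitted over all 36897 probe sets (limma 3.58.1, lmFit and eBayes, under R 4.3.3) and adjusted by Benjamini-Hochberg at 0.10, as in the paper's methods, with no filter. The fit was tested on simulated data. The members and the 9 gene lists were chosen with earlier results of these data known. Named beside the members were called genes of the pathway list (for the regulators, with none called, the 3 of smallest p), up to 2 markers of smallest p for each cell type, and the 3 probe sets nearest in profile. ADIPOQ, GPD1 and the genes at the ends of each family's range were chosen after their values were seen. Alternatives were other normalizations, filters on dim probe sets, other priors, weighted arrays, a term for sex or for the replicate number, a stricter threshold and each bird left out.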

Additional observations from a re-analysis of the deposited data

Results flagged for a closer look

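One result was flagged among the 31 probe sets checked for an NI bird far from the others, where chance flags about 1 in 20. In the dimmer SLC27A4 probe set, NI bird 3 lay at 8.02 and the other NI birds at 8.17 to 8.20, so that its gap to the nearest bird was 0.846 of the range of the group, which is above Dixon's critical value.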

How the results depend on the processing

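The counts moved with the threshold, with array weights and with 1 bird left out, where each fit also had fewer arrays. The 394 calls became 175 at an adjusted p under 0.05, 766 with array weights and 95 to 487 with 1 bird left out, and the single member call became 0, 3 and 0 to 1. The call in the pathway list was absent (0) without the dimmest 50% of probe sets, which left out its own, and the count was 0 to 2 with 1 bird left out. The cause of the other moves was not tested. Centring on the median, cyclic loess and a further quantile normalization kept the member call. No probe set passed the interaction with sex in any fit that allowed it (the fits without a male bird did not). The dimmer ACSL1 probe set changed sign with array weights (-0.076) and ranged from -0.059 to 0.20 with 1 bird left out. In those fits the dimmer RBP7 probe set ranged from -0.025 to 0.17 and the difference between the changes of the CD36 probe sets from -0.40 to 0.069.

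With the replicate number as a block, 624 probe sets were called and 2 of the members, FABP3 (limma adjusted p = 0.0485) and RBP7. NI bird 4 has no SA bird of its number, so it did not enter the difference in this fit. It was the lowest NI bird for FABP3 (12.75). The fit that left out NI bird 4 without a block did not call FABP3, and the cause of the call with the block was not tested. Deviations of same-numbered birds correlated at 0.29, -0.03 and 0.17, and 3 such values cannot decide whether the numbers pair the birds. By best match, 2 of the 3 SA birds went with the NI bird of their number.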

Other observations

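The order of the birds within each group was shared by FABP3, LPL and the dimmer RBP7 probe set, which was noticed after the values were seen. In all of them SA bird 1 was lowest and SA bird 2 highest, and the NI birds ran from bird 4 over birds 2 and 1 to bird 3. Over the array, 215 of the 36896 other probe sets (0.583%) had this order. The dimmer RBP7 probe set had it without a difference between the groups.

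Members differed in how far birds of 1 group lay apart. The pooled SD within groups was 0.42 in the brighter CD36 probe set and 0.41 in FABP3, which was 2.14 and 2.09 times the median of probe sets in the same decile of brightness. It was 0.06 in the brighter SLC27A4 probe set and 0.07 in FABP4, at 0.265 and 0.402 times that median.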
